A study of Mus musculus with 4 samples.

Results

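Genes that move cargo between membranes were compared between sorted cells of the mouse kidney-ureter junction. The set held 33 genes of vesicle trafficking and membrane transport, taken by symbol from the 36186 rows of the deposited table. They were Golgi and ER-to-Golgi genes, sorting nexins and other endosome genes, adaptor subunits, and SNARE proteins and their partners. The set also held Rab-type GTPases, lipid transfer proteins and P-type ATPases. All 33 were present, each in a single row, and the identifier of each row carried the same symbol in the NCBI gene table.

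RNA came from E13.5 embryos of the strain SV/129 and the genotype PTC-/-MM, which lack the hedgehog receptor Patched in the metanephric mesenchyme, the tissue around the budding ureter. Cells were dissected from the kidney-ureter junction and separated by FACS with an antibody to PTC2. Each sorted population, PTC2+ or PTC2−, has 2 libraries (replicate 1 and replicate 2). Same-numbered PTC2+ and PTC2− libraries share a tag in their column names, whose meaning is not given. The main test did not pair them. All 4 libraries carry the same deletion, and normal embryos were not analysed here. The labels give neither the promoter behind the deletion nor whether replicates are different embryos or litters, so the p-values reflect only library-to-library spread, which may be technical.

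The unit of level is normalized RPKM (NRPKM), which scales reads for the length of the gene and the depth of the library and was scaled further by the authors by a formula not given in the sources used here. Levels set side by side between genes hold on this scale only. The library sums lay between 283806 and 288752 NRPKM. Scaled to a gene of 1 kb, the most common low value of short genes was 0.645 to 0.875 NRPKM per library. It was taken as the step of 1 read, but only 17 to 37 of 117 to 171 low values per library lay close to it. The step was therefore not established as 1 read, and it also rests on gene lengths, which go by gene name. Across most of the table gene names cannot be relied on, since genes that every cell uses are listed at or near 0 there. The 33 genes lie in 3 stretches, on chromosome 16 (Naa60 to Mrps6), chromosome 19 (Ighmbp2 to Pygm) and chromosome 8 (Insr to Agpat5), where such genes are well covered. There, Cfl1, the actin-severing protein cofilin, stood at 3074 and 2647 NRPKM in PTC2+ libraries against 2362 and 2361 NRPKM in PTC2− libraries. Rpl35a, another such gene, stood at 649.7 and 498.2 NRPKM in PTC2+ libraries against 716.1 and 634.8 NRPKM in PTC2− libraries. Rpl24 stood at 196 and 134.5 NRPKM in PTC2+ libraries against 230 and 186.3 NRPKM in PTC2− libraries. The stretches hold 1303 rows in table order. The deleted gene and the sorted antigen have no row in them, so neither label was checked here.

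Membrane traffic runs in both directions between compartments. Cargo leaves the endoplasmic reticulum in coated vesicles, passes the Golgi apparatus and is sorted to the cell surface or to endosomes, while adaptors and clathrin take surface proteins inward for recycling or for breakdown in lysosomes. Rab and Arf GTPases mark the compartments, tethers and SNARE proteins bring membranes together, and flippases and lipid transfer proteins set the lipid make-up of each membrane. Every cell uses this machinery, epithelia use it to build an apical surface, and phagocytes and granule-secreting leukocytes use parts of it heavily.

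Of the 33 genes, 5 were higher in PTC2+ cells and 0 lower (limma on log2(NRPKM + 1), Benjamini-Hochberg adjusted p under 0.05 over all 11807 rows tested). The 5 were Stxbp2, Ehbp1l1, Grtp1, Ehd1 and Ap2m1, with PTC2+ means 1.90 to 2.84 times those of PTC2− cells. Over all rows tested 2.44% were higher and 0.483% lower, and over the 711 stretch rows tested 5.77% were higher and 0.422% lower. At an unadjusted p under 0.05, 11 of the 33 genes were higher and 0 lower, against 17.4% and 9.85% of stretch rows. The median difference of the 33 genes was 0.18 on the log2 scale, against -0.03 for stretch rows and -0.03 for all rows tested. In bulk RNA fewer cells of a type and less RNA per cell cannot be told apart. Each of the 5 calls was lost when any 1 of the 4 libraries was left out (limma adjusted p 0.125 to 0.259), with every difference still positive. All 5 were also lost with no filter on low rows (limma adjusted p 0.12 to 0.176) or without the mean-variance trend (limma adjusted p 0.088 to 0.176), and Ap2m1 and Grtp1 with a pseudocount of 0.1 (limma adjusted p 0.0577 at most).

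**Figure D1:**
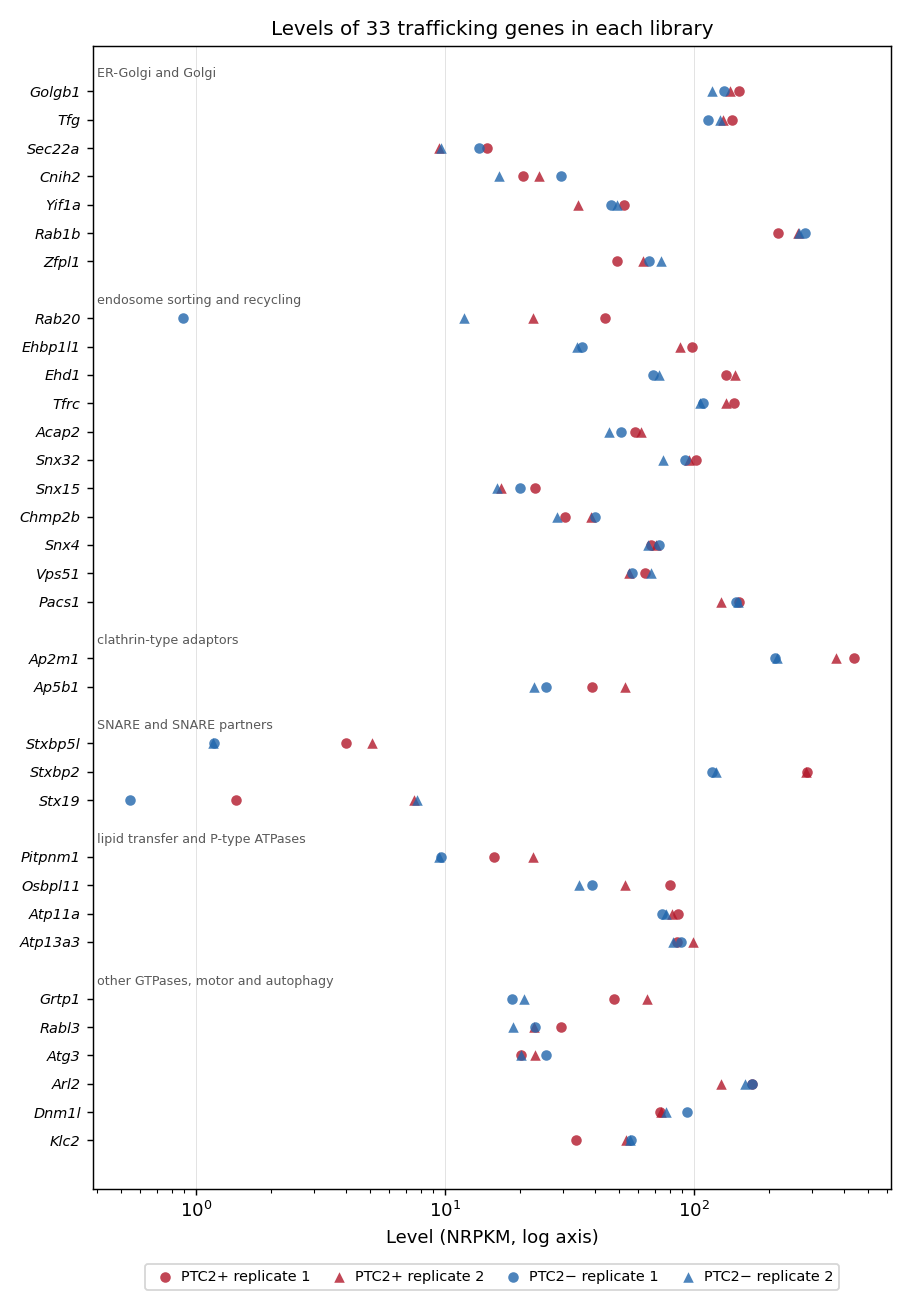
Level of each of the 33 genes in each library (NRPKM, log axis), grouped by role and ordered within a group by the difference; circles are replicate 1, triangles replicate 2, red PTC2+ and blue PTC2−. Red and blue points are well apart for Stxbp2, Ehbp1l1, Grtp1, Ehd1 and Ap2m1, and lie close together for most Golgi genes. They are also apart for genes that did not pass, such as Stxbp5l and Rab20. There the lowest PTC2+ value was 3.40 and 1.88 times the highest PTC2− value.

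Promoters of the higher genes other than Ehd1 are shown from RefSeq, the first listed for each gene, because these genes passed the test. Each runs from 250 bases before to 50 bases after the annotated start, 5′ to 3′ on the strand of the gene, in build GRCm38.p6, which differs from the mm9 build of the deposited values. Stxbp2 is at chr8:3630859-3631158 (plus strand), Ap2m1 at chr16:20535230-20535529 (plus strand), Grtp1 at chr8:13200575-13200874 (minus strand) and Ehbp1l1 at chr19:5726268-5726567 (minus strand). Capitals mark 3 short motifs on either strand: GGGCGG, the GC box, CACGTG, an E-box bound by basic helix-loop-helix factors, and CGGAAG, the core bound by ETS factors.
Stxbp2: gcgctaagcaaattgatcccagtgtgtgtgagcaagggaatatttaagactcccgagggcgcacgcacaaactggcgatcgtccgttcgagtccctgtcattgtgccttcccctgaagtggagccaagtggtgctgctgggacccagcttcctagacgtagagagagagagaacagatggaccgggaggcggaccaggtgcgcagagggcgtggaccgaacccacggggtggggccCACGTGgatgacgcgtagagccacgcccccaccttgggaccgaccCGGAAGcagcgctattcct
Ap2m1: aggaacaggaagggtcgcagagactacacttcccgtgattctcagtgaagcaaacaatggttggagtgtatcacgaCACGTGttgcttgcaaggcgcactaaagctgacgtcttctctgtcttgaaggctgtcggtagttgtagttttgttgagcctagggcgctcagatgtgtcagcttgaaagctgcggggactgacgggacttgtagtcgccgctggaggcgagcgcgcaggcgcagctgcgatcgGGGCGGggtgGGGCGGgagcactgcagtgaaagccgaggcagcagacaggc
Grtp1: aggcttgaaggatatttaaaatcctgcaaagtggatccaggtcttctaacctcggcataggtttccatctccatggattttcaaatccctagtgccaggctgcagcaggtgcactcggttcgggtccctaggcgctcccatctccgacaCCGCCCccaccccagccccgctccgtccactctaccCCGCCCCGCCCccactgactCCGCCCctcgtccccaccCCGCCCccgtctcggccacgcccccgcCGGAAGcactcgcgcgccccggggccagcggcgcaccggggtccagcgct
Ehbp1l1: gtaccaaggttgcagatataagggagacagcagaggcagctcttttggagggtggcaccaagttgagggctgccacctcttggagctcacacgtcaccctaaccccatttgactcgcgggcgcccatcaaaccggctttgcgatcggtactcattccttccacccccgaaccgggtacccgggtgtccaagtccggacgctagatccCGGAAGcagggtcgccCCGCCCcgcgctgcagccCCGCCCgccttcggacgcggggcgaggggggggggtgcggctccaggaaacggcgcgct
The E-box was in 2 of these 4 promoters (Stxbp2 and Ap2m1), in 3 of 22 promoters matched for genes of the set that did not pass, and in 7.15% of the 32851 promoters of that length in the table. The GC box was in 3 of the 4, in 18 of the 22 and in 35.7% of the table. The ETS core was in 3 of the 4, in 11 of the 22 and in 16.9% of the table. A match describes these letters only and shows no binding.

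Of the 3 genes of the SNARE group 1 was higher and 0 lower, against 5.77% and 0.422% of stretch rows. The higher gene, Stxbp2, had the smallest adjusted p of the set. It encodes the Sec1/Munc18-type protein that works with syntaxins in granule release of leukocytes and mast cells and at the apical membrane of epithelia. It reached 285 and 284 NRPKM in the PTC2+ libraries, against 118 and 123 NRPKM in the PTC2− libraries. The PTC2+ libraries differed by 1.01-fold from each other, and the lowest PTC2+ value was 2.30 times the highest PTC2− value. The difference was 1.23 on the log2 scale (SE 0.13, 95% interval 0.91 to 1.55, limma adjusted p = 0.0189).

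Stxbp5l, the neuronal tomosyn-2 that holds back SNARE assembly, was among the lowest genes of the set. Its level was 4.03 and 5.11 NRPKM in PTC2+ libraries against 1.19 and 1.18 NRPKM in PTC2− libraries. The populations did not overlap, but the difference of 1.35 on the log2 scale (SE 0.42) did not pass (limma adjusted p = 0.168). Stx19, a syntaxin without a membrane anchor, was at 1.45 and 7.50 NRPKM in PTC2+ libraries against 0.543 and 7.77 NRPKM in PTC2− libraries. Here replicate 2 was high and replicate 1 low in both populations. The 95% interval of the difference ran from -2.19 to 2.81 on the log2 scale, which includes changes of several fold either way.

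Among the genes of endosome sorting and recycling, 2 of 11 were higher and 0 lower, against 5.77% and 0.422% of stretch rows. Ehd1 encodes an ATPase that shapes tubules of recycling endosomes. It was at 134 and 147 NRPKM in PTC2+ libraries against 68.5 and 72.4 NRPKM in PTC2− libraries. Both PTC2+ values lay above both PTC2− values, and the spread within each population was 1.09-fold or less. The difference was 0.98 on the log2 scale (SE 0.15, limma adjusted p = 0.0365). Ehbp1l1 encodes a partner of EHD proteins and Rab8 in traffic to the apical surface of epithelia. It was at 98.9 and 88.0 NRPKM in PTC2+ libraries against 35.5 and 33.9 NRPKM in PTC2− libraries, again with no overlap. Its difference was 1.40 on the log2 scale (SE 0.17, limma adjusted p = 0.0239), a 2.69-fold ratio of means.

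Rab20, a GTPase of phagosome maturation, had libraries that were far apart. Its level was 44.0 and 22.6 NRPKM in PTC2+ libraries against 0.893 and 12.0 NRPKM in PTC2− libraries. The PTC2− libraries differed 13.4-fold from each other, and the log2 difference of 2.72 (SE 0.92) did not pass (limma adjusted p = 0.191). With 1 library left out it ran from 1.33 without PTC2− replicate 1 to 4.11 without PTC2− replicate 2. Tfrc, the transferrin receptor that carries iron into cells and marks recycling endosomes, was at 145 and 134 NRPKM in PTC2+ libraries against 109 and 106 NRPKM in PTC2− libraries. The populations did not overlap and the difference was 0.37 on the log2 scale (SE 0.14, limma adjusted p = 0.224).

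The sorting nexins, which bind endosome lipids and bend membranes into carriers, lay close together in both populations. Snx4, which returns the transferrin receptor to the surface, was at 67.6 and 70.5 NRPKM in PTC2+ libraries against 72.5 and 65.4 NRPKM in PTC2− libraries. Its log2 difference was 0.0025, with a 95% interval of -0.39 to 0.39. Snx32 averaged 98.8 ± 4.42 and 83.9 ± 12.2 NRPKM, and Snx15 20.0 ± 4.38 and 18.2 ± 2.71 NRPKM (SD, n = 2 each). Neither of these passed (limma adjusted p = 0.503 for Snx32 and 0.855 for Snx15), and the intervals reached 0.66 for Snx32 and 0.80 for Snx15.

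The other endosome genes did not pass either. Acap2, a GTPase-activating protein for Arf6, averaged 59.8 ± 2.02 NRPKM in PTC2+ and 48.4 ± 3.84 NRPKM in PTC2− cells (SD, n = 2 each), without overlap. Vps51, a subunit shared by the GARP and EARP tethers, averaged 59.4 ± 6.40 and 62.0 ± 8.02 NRPKM. Pacs1, which sorts furin at the trans-Golgi network, averaged 140 ± 17.2 and 149 ± 1.65 NRPKM. Chmp2b, of the ESCRT-III filaments that cut vesicles into endosomes, averaged 34.5 ± 5.85 and 34.3 ± 8.43 NRPKM (SD, n = 2 each for Vps51, Pacs1 and Chmp2b, with limma adjusted p 0.796 to 0.984). In those last 3 genes the libraries of the populations were interleaved.

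Both adaptor genes had their PTC2+ libraries above their PTC2− libraries. Ap2m1 encodes the μ subunit of AP-2, the adaptor that gathers cargo into clathrin-coated pits at the cell surface. It was at 442 and 372 NRPKM in PTC2+ libraries against 212 and 217 NRPKM in PTC2− libraries, the highest levels of the set in PTC2+ cells. The difference was 0.92 on the log2 scale (SE 0.15, limma adjusted p = 0.0421), and with each library centred on its median it did not pass (adjusted p = 0.0686). Ap5b1, the β subunit of the late-endosome adaptor AP-5, was at 39.2 and 53.1 NRPKM in PTC2+ libraries against 25.4 and 22.8 NRPKM in PTC2− libraries. Its difference of 0.90 on the log2 scale was similar in size to that of Ap2m1, but with an SE of 0.23 it did not pass (limma adjusted p = 0.115).

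Lipid transfer genes and P-type ATPases gave 0 calls among 4 genes (limma). At an unadjusted p under 0.05, 2 were higher, against 17.4% of stretch rows. Osbpl11, an oxysterol-binding family member of the Golgi and late endosomes, was at 80.0 and 52.9 NRPKM in PTC2+ libraries against 38.9 and 34.6 NRPKM in PTC2− libraries. Pitpnm1, which exchanges phosphatidylinositol for phosphatidic acid between the endoplasmic reticulum and the plasma membrane, was at 15.8 and 22.7 NRPKM in PTC2+ libraries against 9.66 and 9.52 NRPKM in PTC2− libraries. In both genes the PTC2+ libraries were higher but apart from each other by 1.51-fold and 1.44-fold. Their log2 differences were 0.81 (SE 0.24, limma adjusted p = 0.158) for Osbpl11 and 0.91 (SE 0.30, limma adjusted p = 0.180) for Pitpnm1. That of Osbpl11 was 0.52 without PTC2+ replicate 1 and 1.10 without PTC2+ replicate 2.

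The ATPases differed less. Atp11a, a flippase that keeps phosphatidylserine on the inner leaflet of the plasma membrane, averaged 84.1 ± 2.99 NRPKM in PTC2+ and 75.8 ± 2.06 NRPKM in PTC2− cells (SD, n = 2 each). Atp13a3, a polyamine transporter of endosomes, averaged 92.7 ± 9.55 and 85.9 ± 4.66 NRPKM (SD, n = 2 each). The 95% intervals of both differences ended below 0.52 on the log2 scale (limma adjusted p = 0.654 and 0.778).

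Of the 7 ER-to-Golgi and Golgi genes, 0 were called in either direction (limma adjusted p 0.422 to 0.989; 0 at an unadjusted p under 0.05). Their differences ran from -0.32 to 0.22 on the log2 scale, and their 95% intervals all lay between -0.84 and 0.91. Rab1b, the GTPase that directs vesicles from the endoplasmic reticulum to the Golgi, was the highest gene of the set in PTC2− cells. It was at 217 and 261 NRPKM in PTC2+ libraries against 280 and 265 NRPKM in PTC2− libraries. Both PTC2+ values lay below both PTC2− values, by a narrow margin (limma adjusted p = 0.553). Zfpl1, a Golgi membrane protein that binds the golgin GM130, was at 49.2 and 62.8 NRPKM in PTC2+ libraries against 66.1 and 73.8 NRPKM in PTC2− libraries.

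In 2 Golgi genes the PTC2+ libraries lay slightly above the PTC2− libraries, without overlap, and neither passed (limma adjusted p = 0.472 for Golgb1 and 0.573 for Tfg). Golgb1, the long golgin giantin, averaged 146 ± 8.03 NRPKM in PTC2+ and 125 ± 9.42 NRPKM in PTC2− cells (SD, n = 2 each). Tfg, which organizes COPII vesicles at exit sites of the endoplasmic reticulum, was at 143 and 131 NRPKM in PTC2+ libraries against 115 and 127 NRPKM in PTC2− libraries. Yif1a, which cycles between the endoplasmic reticulum and the Golgi, averaged 43.4 ± 12.7 and 47.9 ± 2.15 NRPKM. Sec22a, an endoplasmic reticulum protein related to the SNARE Sec22b, averaged 12.1 ± 3.68 and 11.7 ± 2.87 NRPKM. Cnih2, a cornichon protein that escorts cargo such as AMPA receptors, averaged 22.3 ± 2.30 and 22.9 ± 9.03 NRPKM (SD, n = 2 each). For Yif1a, Sec22a and Cnih2 the libraries of the populations overlapped.

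Among the remaining GTPases, the motor and the autophagy gene, 1 of 6 was higher and 0 lower, against 5.77% and 0.422% of stretch rows. Grtp1 encodes a TBC-domain protein, the fold that switches Rab GTPases off, and is named for its response to growth hormone. It was at 47.7 and 64.9 NRPKM in PTC2+ libraries against 18.7 and 20.9 NRPKM in PTC2− libraries. The lowest PTC2+ value was 2.28 times the highest PTC2− value. Its difference was 1.45 on the log2 scale (SE 0.23, limma adjusted p = 0.0420).

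Rabl3, a Rab-like GTPase, averaged 26.1 ± 4.48 NRPKM in PTC2+ and 20.9 ± 3.05 NRPKM in PTC2− cells. Arl2, a GTPase of tubulin folding, averaged 150 ± 30.2 and 166 ± 7.11 NRPKM. Atg3, the enzyme that hands LC3-type proteins to phosphatidylethanolamine in autophagy, averaged 21.6 ± 2.08 and 22.9 ± 3.70 NRPKM (SD, n = 2 each). In these 3 genes the populations overlapped. Dnm1l, the dynamin-related protein that divides mitochondria and peroxisomes, was at 73.0 and 74.0 NRPKM in PTC2+ libraries against 94.1 and 77.2 NRPKM in PTC2− libraries. Klc2, a kinesin light chain that binds cargo, was at 33.8 and 53.6 NRPKM in PTC2+ libraries against 56.1 and 55.6 NRPKM in PTC2− libraries. Both had lower PTC2+ libraries without overlap, and neither passed (limma adjusted p = 0.560 for Dnm1l and 0.474 for Klc2). The log2 difference of Klc2 was -0.059 without PTC2+ replicate 1 and -0.71 without PTC2+ replicate 2.

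**Figure D2:**
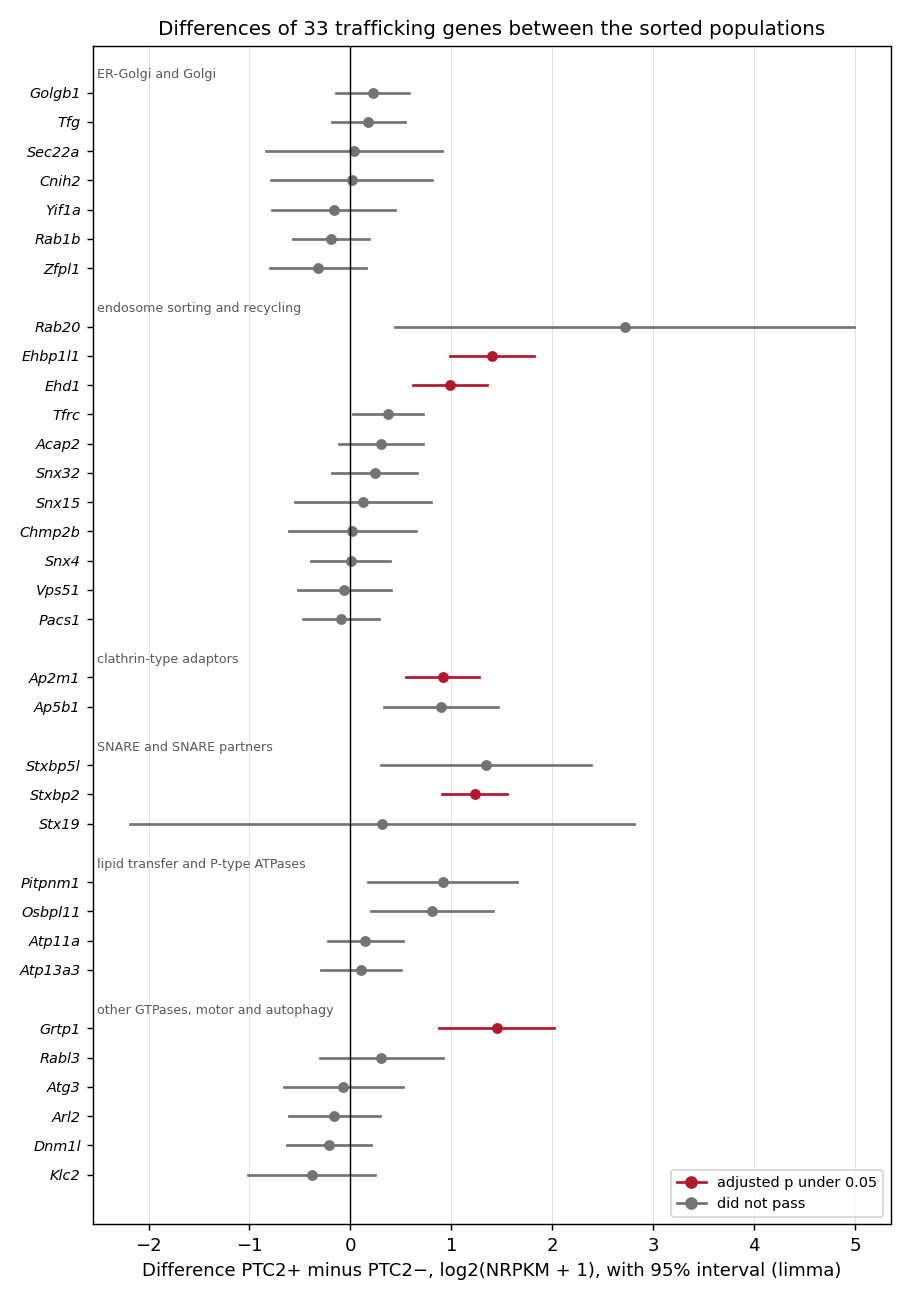
PTC2+ minus PTC2− difference of each gene on the log2(NRPKM + 1) scale (points) with its 95% interval from limma (lines), grouped by role; red genes passed an adjusted p under 0.05 and grey ones did not. The 5 red genes lie between 0.92 and 1.45, and the Golgi group lies around 0.

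Across the set, the populations did not overlap in 16 genes with higher PTC2+ libraries and in 4 with lower ones (Rab1b, Zfpl1, Dnm1l and Klc2), and they overlapped in 13. Among stretch rows tested, 30.2% were higher and 29.4% lower without overlap. Of the 28 genes that did not pass, 21 had a 95% interval within -1 and 1 on the log2 scale. The intervals of the other 7 reached past that range (Rab20, Stx19, Stxbp5l, Pitpnm1, Osbpl11, Ap5b1 and Klc2). Those of Stx19 and Klc2 held both signs. Those of the remaining genes were wholly positive, such as 0.33 to 1.46 for Ap5b1 and 0.20 to 1.42 for Osbpl11. All 33 genes passed the filter of 1 NRPKM in at least 2 libraries, 31 of them at that level in all 4 libraries. The other two, Rab20 and Stx19, fell below it in PTC2− replicate 1 only.

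In order of level in PTC2− cells the set ran from Stxbp5l at 1.18 ± 0.00798 NRPKM through Vps51 (62.0 NRPKM) to Ap2m1 at 214 ± 3.83 and Rab1b at 272 ± 10.3 NRPKM (SD, n = 2). In PTC2+ cells Ap2m1 stood first at 407 ± 49.5, followed by Stxbp2 at 284 ± 1.05 and Rab1b at 239 ± 31.2 NRPKM (SD, n = 2). The libraries of Stxbp2 and Rab1b did not overlap in that order, since the highest Rab1b value was 261 and the lowest Stxbp2 value 284 NRPKM.

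The 5 higher genes were spread over the stretches: Stxbp2 and Grtp1 among 4 genes on chromosome 8, Ehbp1l1 and Ehd1 among 14 on chromosome 19, and Ap2m1 among 15 on chromosome 16. Of all stretch rows tested, 5.77% were higher. Grtp1 lies in the row after Lamp1, a lysosome gene outside the set that also passed, with log2 differences of 1.45 and 1.20. Log2 differences of the tested rows beside Ehbp1l1 were 1.27 (Kcnk7) and 0.013 (Fam89b), and beside Stxbp2 1.10 (Pcp2) and -0.37 (Retn). Beside Ehd1 the row of Cdc42bpg was at 0.50, and beside Ap2m1 those of Dvl3 and Gm15760 at -0.21 and -0.42. The row after Grtp1, Mir1968, was at -0.41. Apart from Lamp1 no neighbour passed. Osbpl11 and Snx4 occupy adjacent rows, with log2 differences of 0.81 and 0.0025. The run Yif1a, Cnih2, Rab1b and Klc2 also occupies adjacent rows, with log2 differences of -0.17, 0.01, -0.19 and -0.38, none of which passed. The sources used here do not say whether reads were counted by strand, so reads of overlapping genes cannot be told apart.

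**Figure D3:**
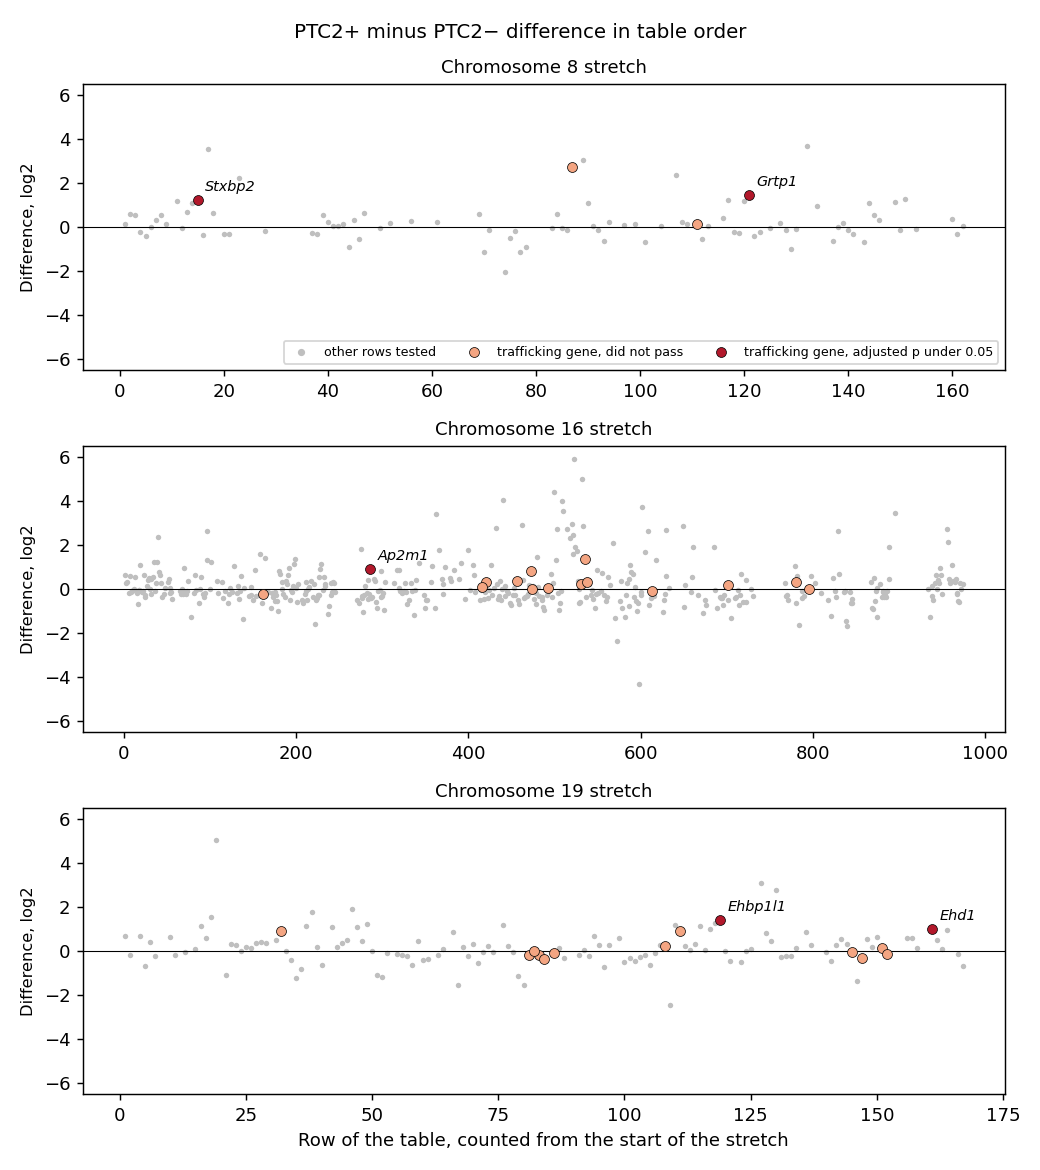
PTC2+ minus PTC2− difference (log2 scale) of every tested row of the 3 stretches (grey), in table order from the start of each stretch, with the 33 trafficking genes as outlined points, dark red for the 5 with an adjusted p under 0.05. The 5 named genes lie apart from each other, and the other rows of each stretch lie on both sides of 0.

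A further list of 42 trafficking genes of the same stretches was set beside the 33. Of its 39 tested genes, 3 were higher and 0 lower (limma adjusted p under 0.05 over all rows), against 5.77% and 0.422% of stretch rows. At an unadjusted p under 0.05 there were 15 higher and 2 lower, against 17.4% and 9.85% of stretch rows. The median difference was 0.26 on the log2 scale. With p-values adjusted within the stretches 8 were higher and 1 lower, and the count of the 33 genes was again 5 higher and 0 lower, against 9.14% of stretch rows higher and 1.97% lower.

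Unc93b1, which escorts Toll-like receptors into endosomes, was at 243 and 244 NRPKM in PTC2+ libraries against 4.31 and 9.20 NRPKM in PTC2− libraries (log2 difference 5.05, SE 0.33, limma adjusted p = 0.00740). Nagpa, the Golgi enzyme that uncovers mannose 6-phosphate on lysosomal hydrolases, was at 84.8 and 93.5 NRPKM in PTC2+ libraries against 18.2 and 15.2 NRPKM in PTC2− libraries (log2 difference 2.35, SE 0.19, limma adjusted p = 0.00940). Lamp1, a main glycoprotein of the lysosome membrane, named here after its values were seen because it was the third to pass, was at 1231 and 1119 NRPKM in PTC2+ libraries against 546 and 478 NRPKM in PTC2− libraries (limma adjusted p = 0.0239). In each of the 3 both PTC2+ libraries lay above both PTC2− libraries.

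Cd209a, a C-type lectin that takes up glycans in dendritic cells, was at 4.88 and 2.58 NRPKM in PTC2+ libraries and listed at 0 in both PTC2− libraries (limma adjusted p = 0.0755). Atp13a4, a relative of Atp13a3, was at 1.94 and 3.30 NRPKM in PTC2+ libraries against 0 and 0.0707 NRPKM in PTC2− libraries (limma adjusted p = 0.103). Rhod, a small GTPase of endosomes, had the lowest difference at -1.11 on the log2 scale, with 33.5 and 23.1 NRPKM in PTC2+ libraries against 65.8 and 57.0 NRPKM in PTC2− libraries (limma adjusted p = 0.0804). Tmem30c of the flippase partner family, Arl13b, a GTPase of the cilium membrane, and the endocytosis kinase Tnk2 followed with -0.72, -0.62 and -0.52 (limma adjusted p = 0.455, 0.368 and 0.274).

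**Figure D4:**
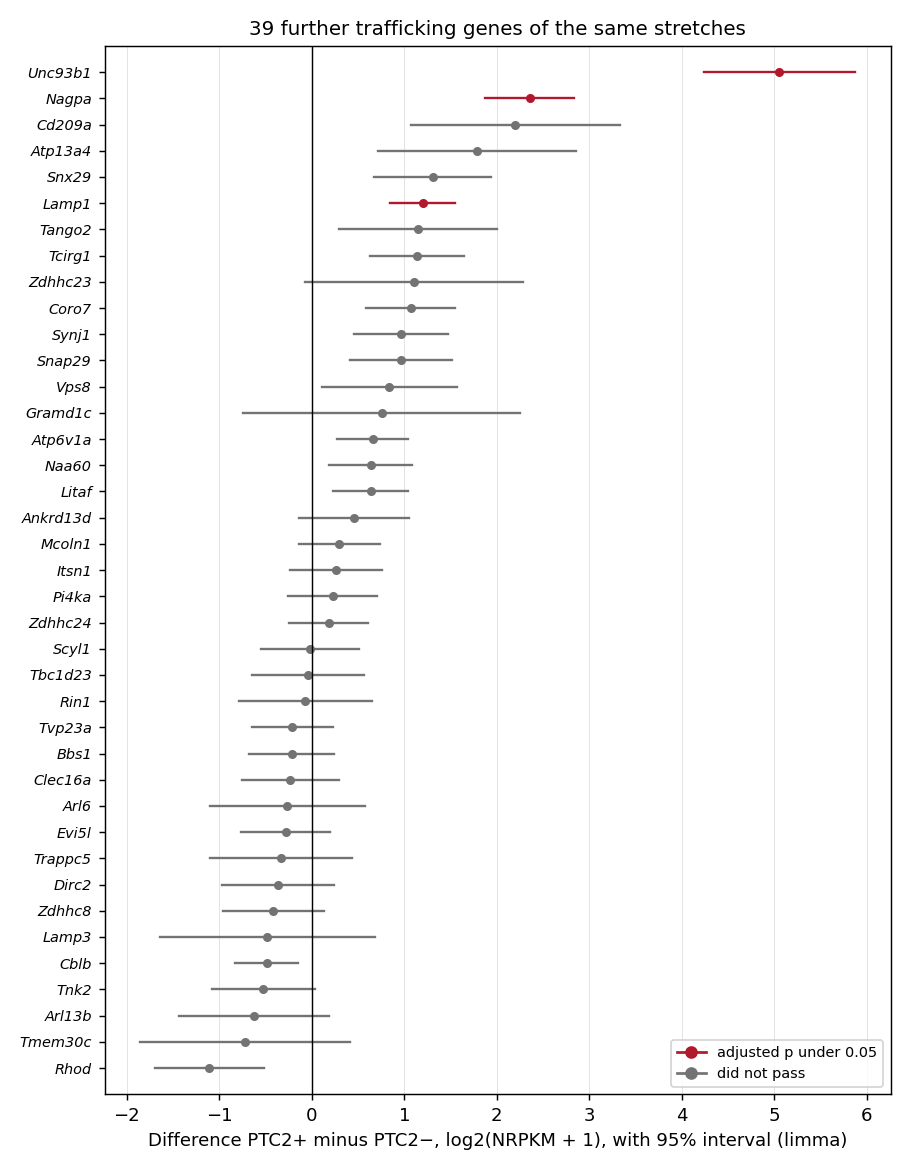
PTC2+ minus PTC2− difference on the log2(NRPKM + 1) scale with its 95% interval (limma) for the 39 further trafficking genes tested, ordered by size; red genes passed an adjusted p under 0.05. Unc93b1, Nagpa and Lamp1 are red, and Rhod lies at the low end at -1.11.

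Some of the markers of other cell types differed between the populations. The marker lists were chosen with earlier results of these data known. Of 11 genes listed as myeloid markers 10 were tested, and 7 were higher and 0 lower in PTC2+ cells (limma adjusted p under 0.05 over all rows). Among stretch rows tested, 5.77% were higher and 0.422% lower. The summed level of the 11 myeloid genes was 614 to 696 NRPKM in PTC2+ and 82.9 to 90.3 NRPKM in PTC2− libraries. Klhl6 and Nfkbiz, both among the 7, were also at 24.6 to 36.1 NRPKM in PTC2− libraries. Whether each listed gene is limited to myeloid cells was not tested. Cd86, Cd200r1, Cd200r4, Stfa2l1 and Retnla were listed at 0 in both PTC2− libraries, and Retnla also in PTC2+ replicate 1. Tnfsf13b had the opposite sign, at 3.44 and 2.63 NRPKM in PTC2+ libraries against 7.87 and 7.62 NRPKM in PTC2− libraries (limma adjusted p = 0.196). Of 6 mesenchymal markers 2 were lower (Cd248 and Snai2), with sums of 419 to 490 NRPKM in PTC2+ and 942 to 976 NRPKM in PTC2− libraries. Of 4 epithelial markers found 1 was higher (Cldn8), with sums of 152 to 166 NRPKM in PTC2+ and 63.8 to 68.5 NRPKM in PTC2− libraries, and Upk1b and Cldn16 were at 0 in both PTC2− libraries. Neither was tested: Upk1b was at 0.971 and 0.462 NRPKM in PTC2+ libraries, and Cldn16 at 0 and 4.30 NRPKM. Lymphoid sums of 6 genes were 110 and 128 NRPKM in PTC2+ libraries against 77.5 and 105 NRPKM in PTC2− libraries, with 0 of 3 tested genes called (limma adjusted p 0.0607 or more). Tigit alone gave 77.8 and 103 NRPKM of the PTC2+ sums and 60.7 and 92.6 NRPKM of the PTC2− sums. Ptprcap was at 23.2 and 16.8 NRPKM in PTC2+ libraries against 5.78 and 4.65 NRPKM in PTC2− libraries (limma adjusted p = 0.0607). Fcer2a had the opposite sign (log2 difference -0.30), and Trat1 and Cd96 were at 0 in all 4. Endothelial sums of 3 genes overlapped, with 66.4 and 96.3 NRPKM in PTC2+ libraries against 82.3 and 88.5 NRPKM in PTC2− libraries. The part of these markers in the differences of Stxbp2, Ehbp1l1, Grtp1, Ehd1, Ap2m1, Unc93b1, Nagpa and Lamp1 was not tested.

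**Figure D5:**
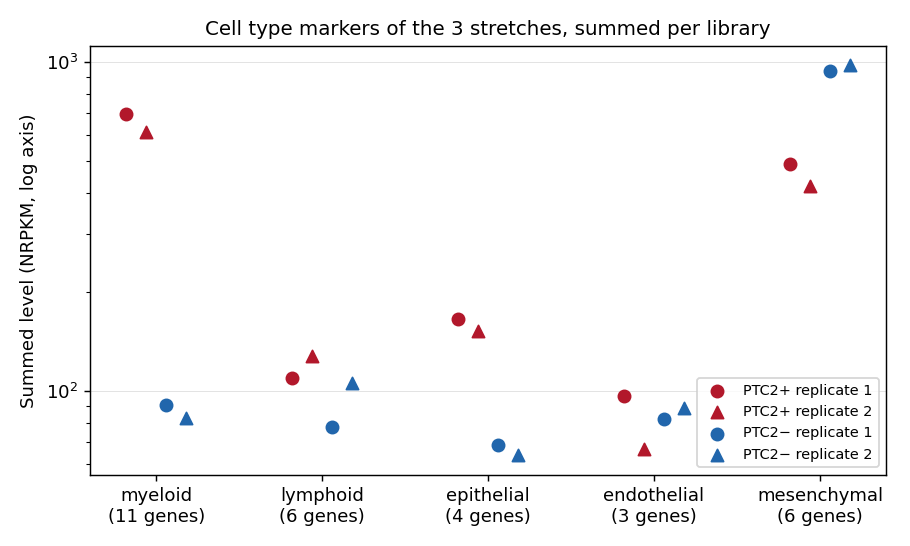
Summed level (NRPKM, log axis) of the cell type markers that lie in the 3 stretches, per library; circles are replicate 1, triangles replicate 2, red PTC2+ and blue PTC2−. The myeloid sums are 614 to 696 in PTC2+ against 82.9 to 90.3 in PTC2− libraries, and the mesenchymal sums run the other way.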

How the data were processed

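Per the labels' protocols, total RNA was amplified by NuGEN Ovation chemistry before Nextera XT library preparation. The deposited values are normalized RPKM per gene, per the file headers; TopHat2 2.0.5, TopHat, Cufflinks 2.0.0 and build mm9 are named in the submitters' processing notes, and the counting step and the formula of the normalization are not given in the sources used here. Whole reads were not recovered (17 to 37 of 117 to 171 low values per library lay within 0.5% of the step taken as 1 read), so no count model was used.

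The test was limma 3.58.1 (R 4.3.3) on log2(NRPKM + 1), for rows reaching 1 NRPKM in 2 or more libraries (eBayes with trend, Benjamini-Hochberg over all rows, threshold 0.05), after a test on simulated data. Differences are PTC2+ minus PTC2− and understate the change of low genes. Stretches were taken in table order between their named end genes. The members, the other trafficking genes and the markers were chosen with earlier results of these data known. All members were named, with the 4 largest differences in each direction of the other trafficking genes and the tested rows beside the members that passed. Alternatives were other pseudocounts, filters, trend, centring, adjustment and row sets, a replicate block and each library left out.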

Additional observations from a re-analysis of the deposited data

How the results depend on the processing

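All alternatives were planned. The 5 calls (Stxbp2, Ehbp1l1, Grtp1, Ehd1 and Ap2m1) kept a positive difference in all 65 alternative values, 32 of them past the threshold. The count of 5 genes higher was 5 with a pseudocount of 5, a filter of 5 NRPKM, adjustment within the stretches or a fit on stretch rows alone, 4 with centring and 3 with a pseudocount of 0.1 (without Ap2m1 and Grtp1). Without any filter, and likewise without a trend, it was 0 in limma, where 10 and 9 genes had an unadjusted p under 0.05. It was 0 when any 1 library was left out, with 7 to 10 genes at an unadjusted p under 0.05 and the lone library taken to vary like the other population. The cause was not tested. Of all rows, 345 changed, against 214 with a pseudocount of 0.1, 0 when unfiltered (limma, 2596 rows at an unadjusted p under 0.05), 200 with no trend and 0 to 42 with 1 library left out. The other trafficking genes higher (3) were 0 with no filter, 5 with a filter of 5 NRPKM, 8 with adjustment within the stretches, 9 with a fit on stretch rows alone and 0 to 1 with 1 library left out, and those lower (0) were 1 in each of the stretch settings.

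Same-numbered libraries share a tag in their column names, and whether they came from the same sort or collection is not given. Their deviations correlated at 0.0229 over all rows tested and 0.0917 over stretch rows. With the replicate block 5 genes of the set, 332 rows and 4 other trafficking genes higher passed.

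Of 363 alternative values of the 28 genes that did not pass, 0 passed and 23 in 11 genes changed sign, all of them small or imprecise. With 1 library left out their log2 differences ran over -0.26 to 0.33 for Sec22a, -0.092 to 0.34 for Snx15, -0.23 to 0.087 for Atg3, -0.46 to 0.13 for Yif1a, -0.38 to 0.41 for Cnih2, -0.071 to 0.076 for Snx4, -0.19 to 0.071 for Vps51, -0.22 to 0.032 for Pacs1, -0.23 to 0.27 for Chmp2b, -0.94 to 1.56 for Stx19 and -0.36 to 0.047 for Arl2. With each library centred on its median they were -0.0098 for Sec22a, -0.031 for Cnih2, -0.042 for Snx4 and -0.025 for Chmp2b. The PTC2− means of Stx19, Stxbp5l and Rab20 were 4.16, 1.18 and 6.45 NRPKM.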
